A study of Mus musculus with 8 samples.

Results

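Immune checkpoint ligands and receptors are surface proteins that restrain or license immune cells. The 10 genes described here were taken by symbol: Cd274 (PD-L1), Pdcd1lg2 (PD-L2), Havcr2 (TIM-3), Cd200, its receptor Cd200r1, Vsir (VISTA), Sirpa, its ligand Cd47, Cd80 and Cd86. All 10 were among the 35906 genes with estimated counts and all 10 passed the filter on low counts, which left 15212 genes. Macrophages had been sorted from the livers of mice labelled BALB/c WT, and their RNA was measured in 4 samples from animals given carbon tetrachloride (CCl4) and 4 from animals given vehicle. CCl4, a hepatotoxic solvent, is widely used to bring about fibrosis, and the question of the series was how the macrophage transcriptome differs in that state. Nonparenchymal cells of perfused, collagenase-digested livers were stained for CD45 and F4/80 and sorted, and the design text adds that CD31-positive cells were left out. The labels give neither dose nor duration of CCl4. They also do not say whether a library is 1 animal, so the p-values reflect only how far these libraries spread, and that spread may be partly technical.

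As background, these proteins work in pairs across cell contacts. PD-L1 and PD-L2 engage the receptor PD-1 on T cells and lower T cell activity, whereas CD80 and CD86 on antigen-presenting cells deliver the costimulatory signal through CD28 and are taken up by CTLA-4. CD200 and CD47 are carried by many cell types and act on myeloid cells through CD200R and SIRPα, which dampen activation and phagocytosis, while TIM-3 and VISTA are found on myeloid cells as well as T cells. In the liver, Kupffer cells, the resident macrophages, are known for presenting antigen in a tolerogenic way.

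The promoters of 3 members are shown: Cd200 and Havcr2 had the largest fold changes of the 10, and Cd274, known as an interferon-responsive gene, showed no detectable difference. Each line is the 250 bases before the RefSeq start on the GRCm38.p6 build, 5′ to 3′ in the sense of the gene, with matches to the motifs named below in capitals. Cd200 lies on the minus strand at chr16:45409054-45409303, Havcr2 on the plus strand at chr11:46454681-46454930 and Cd274 on the plus strand at chr19:29367188-29367437.
Cd200: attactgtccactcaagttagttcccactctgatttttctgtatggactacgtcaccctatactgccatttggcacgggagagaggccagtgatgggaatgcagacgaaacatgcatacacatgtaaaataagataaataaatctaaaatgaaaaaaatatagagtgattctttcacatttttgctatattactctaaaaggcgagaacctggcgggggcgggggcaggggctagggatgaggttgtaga
Havcr2: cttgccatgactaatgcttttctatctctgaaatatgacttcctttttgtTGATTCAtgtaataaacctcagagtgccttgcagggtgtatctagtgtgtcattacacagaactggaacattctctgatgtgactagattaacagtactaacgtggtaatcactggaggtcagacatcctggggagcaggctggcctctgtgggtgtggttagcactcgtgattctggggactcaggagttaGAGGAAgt
Cd274: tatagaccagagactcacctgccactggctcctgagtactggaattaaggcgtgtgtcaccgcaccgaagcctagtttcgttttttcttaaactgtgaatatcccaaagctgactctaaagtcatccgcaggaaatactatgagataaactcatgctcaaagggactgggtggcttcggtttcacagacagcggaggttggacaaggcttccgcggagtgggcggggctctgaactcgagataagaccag

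Both strands were searched for 6 patterns: TTCNNNGAA (STAT), GAAA followed by NN and GAAA (interferon-stimulated response element), TGANTCA (AP-1), CACGTG (E-box), GAGGAA (PU.1) and GGG followed by NNNNN and CC (NF-kB). No 2 of the matches printed overlap. The Havcr2 stretch held an AP-1 match that begins 200 bases before the start, TGATTCA, and a PU.1 match 8 bases before it, GAGGAA. None of the 6 patterns was found in the Cd200 or Cd274 stretch, which says only that these letters are not in these windows. Of 32851 promoter stretches of the same length, 6.75% held the AP-1 pattern and 23.3% the PU.1 pattern, against 7.02% for STAT, 2.98% for the interferon element, 6.02% for the E-box and 45.8% for NF-kB. A promoter stretch was found for 7 of the 10 members.

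Macrophages of CCl4-treated livers had higher levels of 4 of the 10 genes and no member was called lower. Cd200 rose 21.5-fold (log2 4.43, and 1.89 to 4.79 over the alternatives), Havcr2 4.01-fold, Cd200r1 1.90-fold and Vsir 1.65-fold, by edgeR's quasi-likelihood test with Benjamini-Hochberg adjustment over all 15212 genes at a threshold of 0.05. The calls of Cd200, Havcr2 and Cd200r1 held in all 19 alternatives. That of Vsir held in 9 of 19, and Cd86 was called lower in 4 of 19. Across all genes tested, 15.2% were called in either direction, 8.93% higher and 6.26% lower. All 4 CCl4 libraries lay above all 4 vehicle libraries for 5 members (the 4 called and Sirpa), as for 13.0% of all genes tested, and groups were apart in either direction for 22.5%. The median log2 fold change was 0.46 over the 10 members and -0.03 over all genes tested. The members were chosen with earlier results of these data known, so setting these counts and medians beside all genes is no test. Levels are given as CPM, read counts relative to the library size after scaling with edgeR's TMM factors. A value with ± is the mean and SD of the 4 libraries of a group. Each fold change divides CCl4 by vehicle and carries its standard error (SE). These are bulk samples, so fewer cells of a type and less RNA per cell cannot be told apart.

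The libraries held between 19489104 and 26196063 estimated counts. Vehicle 2 and CCl4 4 stood apart: their totals were the lowest, and olfactory and vomeronasal receptor genes together took 3094 and 3034 CPM in them, against 607.2 to 1538 CPM in the other 6. The marker of the sort, Adgre1, which encodes F4/80, was at 1187 ± 166 CPM in CCl4 and 1272 ± 210 CPM in vehicle (edgeR adjusted p = 0.768). Pecam1, which encodes the CD31 sorted against, was at 27.4 ± 2.86 CPM in CCl4 and 73.8 ± 21.3 CPM in vehicle (edgeR adjusted p = 0.000960). Marker lists of other myeloid states moved with the groups. Of 11 Kupffer cell genes 10 fell (summed 8951 to 14971 CPM in CCl4, 24539 to 38927 CPM in vehicle), and all 10 markers of lipid-laden and scar-associated macrophages rose (36699 to 55721 CPM in CCl4, 5996 to 7680 CPM in vehicle). Of 10 monocyte genes 4 rose (1187 to 1529 CPM in CCl4, 406.3 to 901.2 CPM in vehicle), and of 11 neutrophil genes 6 rose (241.0 to 522.0 CPM in CCl4, 105.3 to 235.0 CPM in vehicle). Of 10 genes each, general macrophage markers gave 2 higher and 1 lower, dendritic cell markers 1 higher and 2 lower, stellate cell markers 3 higher and 3 lower, and hepatocyte markers 0 higher and 1 lower. Their part in the results on the members was not tested.

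**Figure D1:**
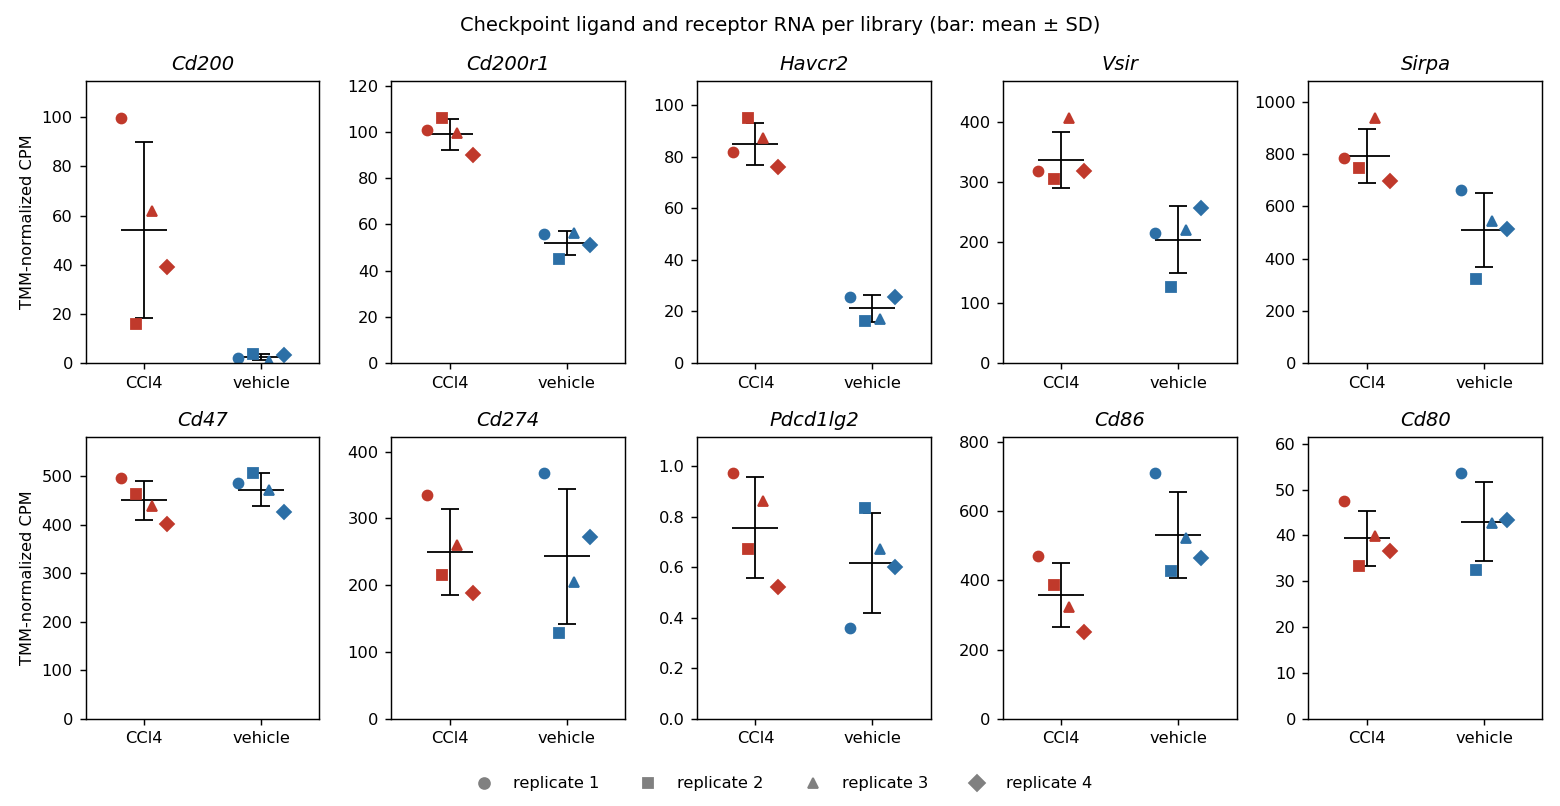
TMM-normalized CPM of the 10 members in each library, with CCl4 on the left and vehicle on the right of each panel; points are libraries, the horizontal bar is the mean and the whiskers are the SD (n = 4 per group). The groups do not overlap for Cd200, Cd200r1, Havcr2, Vsir and Sirpa, and vehicle 2 is the lowest of the 8 libraries for Cd274, Havcr2, Cd200r1, Vsir, Sirpa and Cd80.

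The CD200 axis differed on both sides. Cd200, the ligand, is known from endothelial cells, neurons, B cells and activated T cells. It was at 99.8, 15.7, 62.1 and 39.2 CPM in CCl4 1 to 4, against 2.16, 3.72, 0.910 and 3.32 CPM in vehicle 1 to 4. The CCl4 libraries spread widely, CCl4 1 being the highest and CCl4 2 the lowest, but every one of them lay above all vehicle libraries. The log2 fold change was 4.43 (SE 0.57, edgeR adjusted p = 0.000350). The size of the difference depends on the quantity used, and the call does not. With length-scaled TPM counts it was 3.75 (edgeR adjusted p = 0.00159). In the authors' FPKM, where 10.4% of 12020 genes were called, Cd200 was at 6.22 ± 4.19 in CCl4 and 0.821 ± 0.712 in vehicle, a difference of 2.88 on the log2(FPKM + 0.1) scale (limma adjusted p = 0.00919) and 1.89 on the log2(FPKM + 1) scale (limma adjusted p = 0.0100). Cd200 lies on chromosome 16, 45382135 to 45409053 (minus strand, GENCODE M21 on mm10).

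Genes of other cells moved beside Cd200. The summed level of 10 mesothelial markers was 97.9, 84.4, 218.1 and 80.1 CPM in CCl4 1 to 4, against 22.3, 16.2, 8.46 and 37.8 CPM in vehicle 1 to 4. The groups do not overlap, and 8 of the 10 markers were called higher, among them Upk3b, a uroplakin of mesothelium (3.98, SE 0.64, edgeR adjusted p = 0.00154). CCl4 3 had the highest mesothelial sum and CCl4 1 the highest Cd200. For both quantities every CCl4 library lay above all vehicle libraries. That also held for the summed monocyte, neutrophil and scar-associated macrophage markers given above, and for 13.0% of all genes tested. The summed level of 12 endothelial markers ran from 241.8 to 398.4 CPM in CCl4 and from 541.2 to 979.6 CPM in vehicle, and 8 of the 12 fell, in cells sorted against CD31 according to the design text. The 9 B cell markers together were at 48.2 to 85.5 CPM in CCl4 and 75.9 to 119.9 CPM in vehicle, with 1 called lower. No marker of these 3 lists was at 0 in all libraries. The part of mesothelial, endothelial or B cells in the Cd200 result was not tested.

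**Figure D2:**
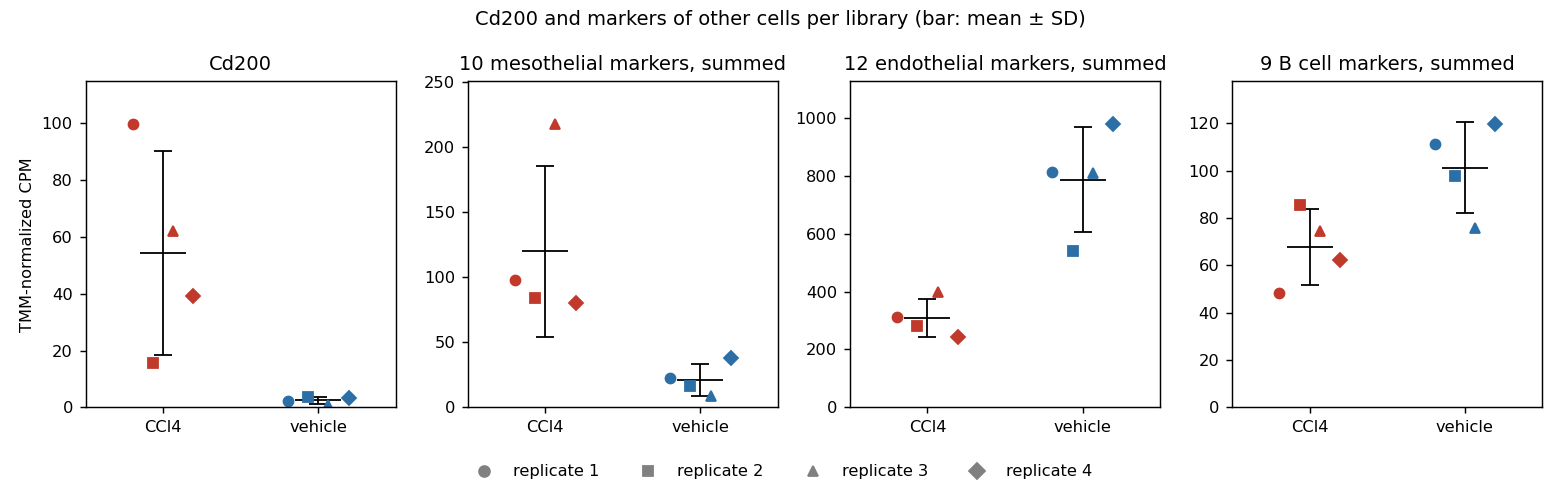
TMM-normalized CPM of Cd200 and the summed CPM of markers of mesothelial, endothelial and B cells in each library, CCl4 left of vehicle; points are libraries and the bars are mean ± SD (n = 4 per group). Cd200 and the mesothelial sum are higher in every CCl4 library, while the endothelial sum is at most 398.4 CPM in CCl4 and at least 541.2 CPM in vehicle.

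Cd200r1, the inhibitory receptor of myeloid cells, had far less spread than its ligand. It was at 100.8, 106.1, 99.4 and 89.9 CPM in CCl4 1 to 4, against 55.8, 45.1, 56.4 and 51.0 CPM in vehicle 1 to 4. The groups were well apart, by 0.93 on the log2 scale (SE 0.13, edgeR adjusted p = 0.000716). The gene lies on chromosome 16, 44765736 to 44794978. Its paralogue Cd200r4 did not pass (0.42 on the log2 scale, SE 0.13, edgeR adjusted p = 0.0543), and neither did Cd200r2 (-0.43) or Cd200r3 (-0.29), each with a mean under 2 TPM in both groups. These 3 were named after their values were seen. Reads of such similar genes are shared out by kallisto, so values within the family are uncertain.

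Havcr2 encodes TIM-3, an inhibitory receptor of T cells and myeloid cells that binds galectin-9, CEACAM1 and phosphatidylserine. It was at 81.6, 94.99, 87.2 and 76.0 CPM in CCl4 1 to 4, against 25.7, 16.4, 16.9 and 25.7 CPM in vehicle 1 to 4. The lowest CCl4 library was well above the highest vehicle library, and the CCl4 libraries lay close together. The log2 fold change was 2.00 (SE 0.19, edgeR adjusted p = 5.45e-05; chromosome 11, 46454935 to 46481255), and 1.32 on the log2(FPKM + 1) scale (limma adjusted p = 0.000660). Its ligand genes did not pass the test: Lgals9 (galectin-9) was at 336.0 ± 81.8 CPM in CCl4 and 335.8 ± 13.2 CPM in vehicle (edgeR adjusted p = 0.998), and Ceacam1, named after its values were seen, stood at 0.27 on the log2 scale (SE 0.17, edgeR adjusted p = 0.341). T and NK cell markers gave no call in either direction among 11 tested, with summed levels of 70.4 to 100.4 CPM in CCl4 and 85.6 to 117.3 CPM in vehicle.

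Vsir, the inhibitory B7-family protein VISTA, was at 317.9, 305.0, 406.1 and 317.4 CPM in CCl4 1 to 4, against 214.8, 126.0, 219.6 and 257.4 CPM in vehicle 1 to 4. The groups do not overlap, and vehicle 2 is the lowest library. The log2 fold change was 0.72 (SE 0.21, edgeR adjusted p = 0.0397; chromosome 10, 60346851 to 60372684). The call depends on single libraries: it ended without CCl4 1 (edgeR adjusted p = 0.0672), CCl4 2 (0.0601), CCl4 3 (0.0935), CCl4 4 (0.0548), vehicle 1 (0.0635) or vehicle 3 (0.0808), and held without vehicle 2 (0.0259) or vehicle 4 (0.0376). It also ended with library size only (0.0560), with length-scaled TPM counts (0.104) and in the authors' FPKM table (limma adjusted p = 0.297 with FPKM + 1 and 0.302 with FPKM + 0.1). Vsir lies inside Cdh23, which runs on the opposite strand and rose as well (21.2 CPM in CCl4 and 5.10 CPM in vehicle, log2 fold change 2.06, edgeR adjusted p = 0.000334). No exon base of Vsir out of 5014 lies in an annotated Cdh23 exon, but no step that marks the strand is named, so reads of the pair cannot be told apart by strand.

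Sirpa and Cd47, the receptor and the ligand of the phagocytosis checkpoint, did not pass the test. Sirpa was at 786.1, 746.2, 939.8 and 699.2 CPM in CCl4 1 to 4, against 662.2, 321.8, 544.7 and 512.3 CPM in vehicle 1 to 4. The groups do not overlap, and vehicle 2 is again the lowest library. The difference, 0.64 on the log2 scale (SE 0.21), missed the threshold (edgeR adjusted p = 0.0671). Sirpa lies on chromosome 2, 129592835 to 129632228. It passed without vehicle 1 (edgeR adjusted p = 0.0308), without vehicle 2 and CCl4 4 together (0.0412), with DESeq2 (0.0166), with limma-voom (0.0498) and with upper-quartile scaling (0.0492). The activating paralogues Sirpb1a (1.45, SE 0.14, edgeR adjusted p = 8.41e-05) and Sirpb1c (1.36, SE 0.16, edgeR adjusted p = 0.000227) rose. Reads from stretches that such paralogues share with Sirpa are split by kallisto, so values within the family are uncertain.

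Cd47 was at 496.5, 462.4, 439.1 and 401.1 CPM in CCl4 1 to 4, against 485.7, 505.6, 471.0 and 426.8 CPM in vehicle 1 to 4. The libraries of both groups interleave. The log2 fold change was -0.07 (SE 0.14, edgeR adjusted p = 0.798), and its 95% interval ran from -0.34 to 0.20. Cd47 is on chromosome 16, 49800533 to 49915010. Thbs1, whose product thrombospondin-1 also binds CD47, rose to 150.7 ± 44.5 CPM in CCl4, against 23.8 ± 12.4 CPM in vehicle (2.66, SE 0.34, edgeR adjusted p = 0.000361).

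The PD-1 ligands showed no detectable difference. Cd274 was at 335.4, 215.8, 259.8 and 188.2 CPM in CCl4 1 to 4, against 367.4, 128.7, 204.1 and 272.5 CPM in vehicle 1 to 4. Vehicle libraries alone spanned the whole range of the CCl4 libraries. The log2 fold change was 0.04 (SE 0.29, edgeR adjusted p = 0.949; chromosome 19, 29367455 to 29388095), below 0 with library size only (-0.09) and upper-quartile scaling (-0.04), and its 95% interval of -0.53 to 0.61 includes changes of either sign. An annotated antisense gene overlaps the span of each of the PD-1 ligand genes. Whether their exons overlap was not examined, and reads of any shared stretch cannot be told apart without strand. Pdcd1lg2, on the same chromosome (29410919 to 29471161), had between 9 and 21 estimated counts in a library. It was at 0.756 ± 0.199 CPM in CCl4 and 0.617 ± 0.198 CPM in vehicle (0.29, SE 0.48, edgeR adjusted p = 0.749), with a 95% interval of -0.64 to 1.23. The groups overlap, and a change within that interval was not detectable at this depth.

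Pdcd1, the gene of the receptor PD-1, was called higher at a low level. It was at 3.28 to 8.79 CPM in CCl4 and 0.440 to 1.20 CPM in vehicle (2.98, SE 0.42, edgeR adjusted p = 0.000719), and the call held on leaving out each of the 8 libraries in turn. None of the 11 T and NK cell markers tested passed beside it, and their log2 fold changes ran in both directions. The 4 with the smallest p were Cd4 (-0.80, edgeR adjusted p = 0.0783), Cd8b1 (1.16, edgeR adjusted p = 0.122), Cd3g (-0.55, edgeR adjusted p = 0.281) and Cd3d (-0.29, edgeR adjusted p = 0.514). The part of T cells in the Pdcd1 result was not tested.

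The costimulatory pair gave no call. Cd86 was at 469.7, 386.7, 323.8 and 249.9 CPM in CCl4 1 to 4, against 710.0, 427.7, 523.9 and 465.1 CPM in vehicle 1 to 4. Of the CCl4 libraries only CCl4 1 lay within the range of vehicle. The log2 fold change was -0.57 (SE 0.22, edgeR adjusted p = 0.112; chromosome 16, 36603869 to 36666081), and it passed with library size only (-0.70, edgeR adjusted p = 0.0243), with upper-quartile scaling (-0.66, edgeR adjusted p = 0.0392) and in the authors' FPKM table (-0.83, limma adjusted p = 0.0378). Cd80 was at 39.4 ± 6.03 CPM in CCl4 and 43.0 ± 8.61 CPM in vehicle, with overlapping groups (-0.13, SE 0.17, edgeR adjusted p = 0.693; chromosome 16, 38455561 to 38496335). Of the receptors they bind, Ctla4 was called higher (1.73, SE 0.53, edgeR adjusted p = 0.0483), at 2.77 ± 1.32 CPM in CCl4 and 0.8286 ± 0.536 CPM in vehicle, and Cd28 was not (0.60, SE 0.34, edgeR adjusted p = 0.275). Ctla4 and Cd28 were named after their values were seen. The Ctla4 call ended without CCl4 1, CCl4 2, vehicle 1, vehicle 2 or vehicle 3 (edgeR adjusted p up to 0.140) and in 6 of 9 other settings (adjusted p up to 0.0746).

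**Figure D3:**
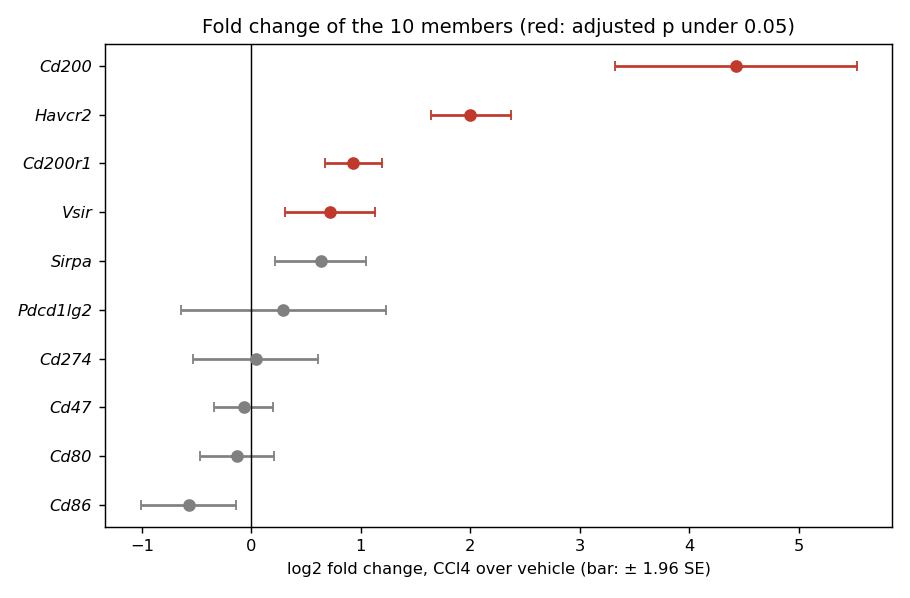
Log2 fold change of each member, CCl4 over vehicle, from edgeR; bars are 95% intervals (normal approximation) and red marks an adjusted p under 0.05. Cd200 stands at 4.43 and Havcr2 at 2.00, while Cd47, Cd274, Cd80 and Pdcd1lg2 have intervals that include 0.

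The order of the members by level, in TPM, kallisto's abundance per transcript length, was led by Cd47 in both groups, at 401.4 ± 32.9 TPM in CCl4 and 402.2 ± 12.99 TPM in vehicle. In CCl4 it was followed by Sirpa (330.7 ± 16), Cd86 (214.7 ± 46.9), Vsir (142.2 ± 7.90), Cd274 (87.6 ± 18.9), Cd200r1 (71.2 ± 4.97), Cd200 (67.7 ± 44.2), Havcr2 (41.1 ± 3.97), Cd80 (21.0 ± 2.00) and Pdcd1lg2 (0.629 ± 0.133). Neighbours in this order from Cd274 to Havcr2 overlapped in their libraries, and the other neighbours did not. Of the Cd200 mean in CCl4, 23.35 TPM came from the main coding transcript, Cd200-202. In vehicle Cd86 came second (346.6 ± 63.4), before Sirpa (217.1 ± 62.2), Vsir (92.7 ± 35.5), Cd274 (87.9 ± 35.9), Cd200r1 (37.5 ± 5.22), Cd80 (21.7 ± 5.06), Havcr2 (10.5 ± 2.86), Cd200 (5.18 ± 3.50) and Pdcd1lg2 (0.541 ± 0.167). There the overlapping neighbours were Cd47 with Cd86, Sirpa with Vsir, Vsir with Cd274, and Havcr2 with Cd200. Sirpa was thus above Cd86 in every CCl4 library and below it in every vehicle library. The place of Cd47 depends on the quantity used. In the authors' FPKM, Sirpa led in CCl4, at 36.6 ± 5.12 against 26.3 ± 3.62 for Cd47. Cd86 led there in vehicle, at 41.4 ± 9.18 against 24.1 ± 2.96 for Cd47.

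Differences between members within a library were compared in 5 pairs on the scale of log2(TPM + 1), with an exact permutation test over the 8 libraries (two-sided; the smallest p it allows is 0.0286) and adjustment over the pairs. None passed after adjustment. At that smallest p a pair can pass only if enough other pairs reach it too, so a miss says little about a single pair. Cd86 minus Cd80 was 3.46, 3.52, 3.14 and 2.97 in CCl4 1 to 4, against 3.91, 4.07, 4.06 and 3.76 in vehicle 1 to 4, a mean difference of -0.68 (exact permutation p = 0.0286, adjusted 0.0714). Sirpa minus Cd47 was -0.39, -0.39, -0.02 and -0.30 in CCl4, against -0.61, -1.63, -0.80 and -0.74 in vehicle, a mean difference of 0.67 (exact permutation p = 0.0286, adjusted 0.0714). For both pairs all CCl4 libraries lay on 1 side of all vehicle libraries, so each test reached its smallest p.

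Cd86 minus Cd274 averaged 1.28 ± 0.24 in CCl4 and 2.05 ± 0.47 in vehicle, and Cd200 minus Cd200r1 averaged -0.32 ± 1.10 in CCl4 and -2.82 ± 1.07 in vehicle (SD, n = 4 each). Both gave exact permutation p = 0.0571 and 0.0714 after adjustment, with CCl4 2 and a vehicle library overlapping in each. The Cd200 TPM rests partly on Cd200-210, a non-coding transcript of 281 bases. It held 38.7% of the gene's TPM in vehicle on a mean of 4.75 estimated counts, and 25.2% in CCl4 on 30.16. In vehicle 2 it gave 5.92 of 9.36 TPM from 11 estimated counts. Cd274 minus Pdcd1lg2 was 5.75 ± 0.18 in CCl4 and 5.75 ± 0.80 in vehicle (exact permutation p = 0.914). In the authors' FPKM values, Cd86 minus Cd80 (-1.0), Sirpa minus Cd47 (0.46) and Cd86 minus Cd274 (-0.83) each passed (exact permutation, adjusted p = 0.0476). They could pass only because they reached the smallest p together. Cd80 was low in FPKM, at 0.796 ± 0.314 in CCl4 and 0.606 ± 0.357 in vehicle, with both means under the pseudocount of 1.

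**Figure D4:**
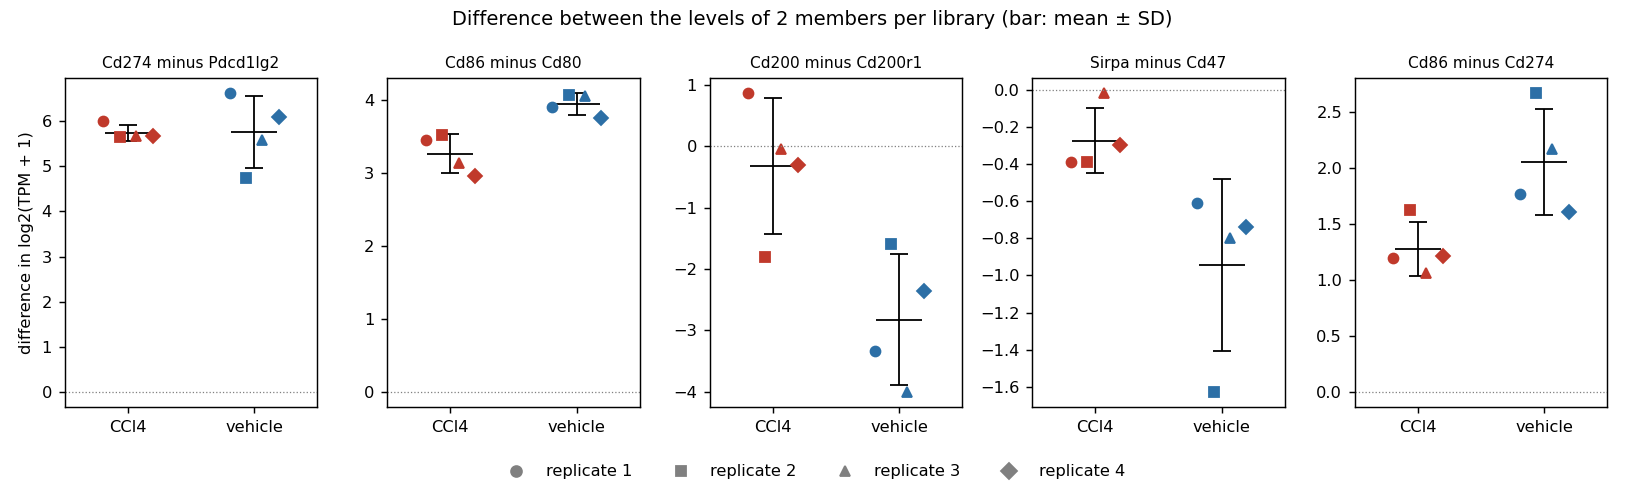
Difference in log2(TPM + 1) between 2 members within each library, CCl4 left of vehicle, with bars of mean ± SD (n = 4 per group). Cd86 minus Cd80 lies between 2.97 and 3.52 in CCl4 and between 3.76 and 4.07 in vehicle, and Sirpa minus Cd47 is higher in every CCl4 library.

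The deposited tables list transcripts, so the makeup of each gene can be described, with the reservation that kallisto estimates such shares from reads that several transcripts have in common. Of 7 members with at least 1 TPM and more than 1 transcript with reads, the most abundant transcript was tested by exact permutation. None showed a shift that passed after adjustment. The smallest p of this test is 0.0286, so with adjustment over 7 a single transcript could not pass alone. Passing needed several transcripts at that p together, so a miss says little about any one of them. Cd86-201, a coding transcript (2539 bases), held 85.3, 78.3, 82.1 and 77.1% of the gene's TPM in CCl4 1 to 4, against 76.2, 64.6, 76.6 and 74.5% in vehicle 1 to 4 (exact permutation p = 0.0286, adjusted 0.100). The non-coding Cd86-203 (975 bases, at chromosome 16, 36660774 to 36666081) held 9.74, 19.3, 14.4 and 19.9% in CCl4 and 20.7, 33.7, 22.2 and 23.7% in vehicle. The groups are apart for both transcripts, and vehicle 2 is the extreme library in each. Cd86-203 was not tested, and as shares of the same gene the values of both transcripts are not independent.

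Cd47-202, the most abundant Cd47 transcript (1175 bases), held 48.7, 47.1, 47.8 and 46.3% of the gene's TPM in CCl4 1 to 4, against 44.6, 42.3, 44.1 and 43.3% in vehicle 1 to 4 (exact permutation p = 0.0286, adjusted 0.100). The longest, Cd47-201 (5250 bases), held 8.95 ± 0.51% in CCl4 and 11.1 ± 0.74% in vehicle. Both shares separate the groups although the gene's total did not differ detectably. The shift of Cd47-202 did not pass after adjustment, and Cd47-201 was not tested. Cd200-202, the main coding transcript of Cd200, held 34.8 ± 3.11% in CCl4 and 20.2 ± 9.68% in vehicle (exact permutation p = 0.0857, adjusted 0.200), where it rests on 10.8 to 52.3 estimated counts per vehicle library. Vsir-201, Sirpa-204 and Cd200r1-201 differed by less than 1 percentage point between the groups, while Cd80-202 was at 57.9 ± 10.4% in CCl4 and 70.8 ± 11.5% in vehicle (exact permutation p = 0.171, adjusted 0.300).

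**Figure D5:**
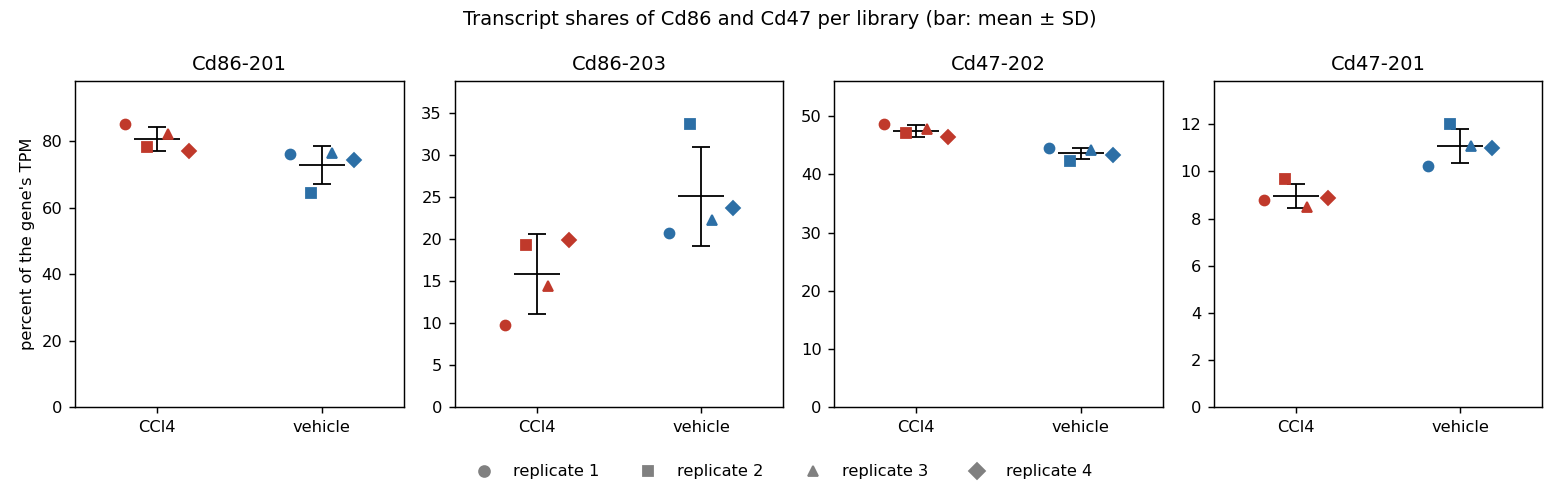
Share of the gene's TPM held by 2 transcripts of Cd86 and 2 of Cd47 in each library, in percent, CCl4 left of vehicle, with bars of mean ± SD (n = 4 per group). Cd86-203 is at most 19.9% in CCl4 and at least 20.7% in vehicle, and Cd47-202 is at least 46.3% in CCl4 and at most 44.6% in vehicle.

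Of 16 binding partners and close paralogues of the members, 6 rose and 0 fell. Their median log2 fold change was 0.46, against -0.03 over all genes tested. Across all genes tested, 8.93% were called higher and 6.26% lower. The lists were chosen with earlier results of these data known, so setting them beside these shares is no test. The risers were Pdcd1, Ctla4, Thbs1, Sirpb1a, Sirpb1c and Sirpb1b (1.09, SE 0.25, edgeR adjusted p = 0.0112), the last named after its values were seen. The limits given above for Ctla4 and for the Sirpa paralogues apply here too. Of 17 tested genes that signal downstream of the receptors or their paralogues, or act on member proteins, 1 rose and 2 fell (median 0.08). Dok2, the adaptor through which CD200R signals, fell to 225.8 ± 28.0 CPM in CCl4, against 394.1 ± 63.4 CPM in vehicle (-0.80, SE 0.17, edgeR adjusted p = 0.00666). Dok1, which is recruited by the same receptor, missed the threshold (0.44, SE 0.14, edgeR adjusted p = 0.0501). Tyrobp, the adaptor DAP12 and the gene of this list with the highest mean TPM, was at 1330 ± 197 CPM in CCl4 and 1239 ± 95.3 CPM in vehicle (edgeR adjusted p = 0.735). The kinase Ptk2b (0.64, edgeR adjusted p = 0.0368) and the PD-L1 stabiliser Cmtm4 (-0.97, edgeR adjusted p = 0.0440, at 2.97 ± 0.50 CPM in CCl4 and 5.82 ± 2.03 CPM in vehicle) were called too. The Ptk2b call ended without CCl4 1, CCl4 2, CCl4 3, vehicle 3 or vehicle 4 (edgeR adjusted p up to 0.0856) and in the authors' FPKM (limma adjusted p = 0.154 with FPKM + 1 and 0.163 with FPKM + 0.1). When single libraries were left out, the Cmtm4 call held only without vehicle 4 (edgeR adjusted p up to 0.127). It also ended without vehicle 2 and CCl4 4 together (edgeR adjusted p = 0.0974), without the filter (0.0779), with length-scaled TPM counts (0.0719) and with limma-voom (0.0639).

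Of 29 tested genes among 36 other checkpoint and costimulatory genes, 3 rose and 6 fell (median 0.05). Among all genes tested, 8.93% were called higher and 6.26% lower. Slamf7, a self-ligand receptor of macrophages and lymphocytes, rose to 73.5 ± 21.6 CPM in CCl4, against 13.8 ± 4.76 CPM in vehicle (2.41, SE 0.30, edgeR adjusted p = 0.000272). Pvr, the ligand of TIGIT and CD226, rose to 51.7 ± 9.49 CPM in CCl4, against 22.3 ± 2.52 CPM in vehicle (1.21, SE 0.16, edgeR adjusted p = 0.000516). Siglece and Pilra, inhibitory receptors of myeloid cells, fell: Siglece was at 47.9 ± 9.01 CPM in CCl4 and 163.4 ± 29.6 CPM in vehicle (-1.77, SE 0.19, edgeR adjusted p = 0.000139), and Pilra at 160.6 ± 14.4 CPM in CCl4 and 351.0 ± 9.17 CPM in vehicle (-1.13, SE 0.13, edgeR adjusted p = 0.000211). Vsig4, a B7-related inhibitor of T cells that also marks Kupffer cells, was lower in CCl4 (-0.80, SE 0.20, edgeR adjusted p = 0.0212), a call that was lost without CCl4 1, CCl4 3, vehicle 1, vehicle 3 or vehicle 4 (edgeR adjusted p up to 0.0681).

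Of 20 genes of the interferon-gamma response and of factors known to act on Cd274, 1 rose and 4 fell (median -0.32). The shares over all genes tested were 8.93% higher and 6.26% lower. Irf1, the interferon-induced factor that binds the Cd274 promoter, was at 246.8 ± 59.4 CPM in CCl4 and 459.7 ± 112.0 CPM in vehicle (-0.90, SE 0.23, edgeR adjusted p = 0.0198), but this call was lost without CCl4 1, CCl4 4, vehicle 3 or vehicle 4 (edgeR adjusted p up to 0.0702). The chemokine Cxcl10 (-1.35, SE 0.26, edgeR adjusted p = 0.00507) and the transcription factor Myc (-0.90, SE 0.19, edgeR adjusted p = 0.00711) fell. The receptor chain Ifngr2 rose (0.75, SE 0.14, edgeR adjusted p = 0.00419), a call lost in the authors' FPKM (0.50 with FPKM + 1, limma adjusted p = 0.161, and 0.55 with FPKM + 0.1, limma adjusted p = 0.166), while Ifngr1, the gene of the list with the highest mean TPM, was at 484.0 ± 19.2 CPM in CCl4 and 494.8 ± 81.4 CPM in vehicle (edgeR adjusted p = 0.921).

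Genes whose pattern over the 8 libraries was most like that of a called member were found by the root mean square difference of mean-centred log2 CPM. For Cd200 they were Adora2a, an adenosine receptor, at a difference of 0.37, and the peptidase Anpep at 0.56. For Havcr2 they were the lysosomal sulfatase Galns (0.16) and the nuclear receptor Nr4a2 (0.19). Cd200r1 was closest to Necap1 (0.08) and Oxct1 (0.11), and Vsir to Aldh6a1 and Serinc5 (0.08 each), of which neither passed the test (edgeR adjusted p = 0.0764 and 0.0728).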

How the data were processed

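Macrophage RNA was amplified with SMART-Seq HT and sequenced after NEBNext Ultra II library preparation, per the labels' protocols. The authors deposited kallisto estimated counts and TPM per transcript for each sample, and 1 table of FPKM per gene. The submitters' processing notes name build mm10 and the tools edgeR, limma and kallisto. Their versions, the transcript release and how the FPKM were made: not given in the sources used here.

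Deposited estimated counts, not normalized between samples, were summed per gene with GENCODE M21 (116405 of 117494 transcripts matched without the version suffix, 13 with it) and rounded. The 1089 unmatched transcripts held 0.29 to 0.313% of a library. Genes were filtered with filterByExpr (minimum count 10, minimum total 15), and CCl4 was compared with vehicle by edgeR 4.0.16 in R 4.3.3 (quasi-likelihood, TMM, group as the sole term, two-sided). The SE is the size of the log2 fold change divided by the square root of F. TPM deposited by the authors were summed per gene for levels, pairs (pseudocount 1) and transcript shares, tested with scipy 1.17.1. FPKM deposited by the authors, whose columns sum to between 81142 and 113842, were tested with limma 3.58.1 on log2(FPKM + 1) or log2(FPKM + 0.1), for genes at 0.1 or more in 4 libraries. Fold changes there are on that scale and understate low genes. Pdcd1lg2 was under this filter, and Vsir stood under its RefSeq synonym 4632428N05Rik. Promoters are from RefSeq (GRCm38.p6).

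Tested on counts simulated for this comparison (14915 genes, 200 of them altered), the fit found 71% of those altered by 1 on the log2 scale and 100% of those altered by 2, and 6.56% of its calls were false. Genes of low mean CPM were not among those altered, so the shares found do not cover genes as low as Pdcd1lg2 or Ctla4. Libraries within a group were no near-duplicates (mean chi-square per gene 30.02 or more, against about 1 for sampling noise). The reference transcripts come from another mouse strain than BALB/c, and reads lost to strain variants were not tested. The members and gene lists were chosen with earlier results of these data known. All 10 members are named. The rule for the other lists allows the 4 genes with the smallest p and the one with the highest mean TPM. Pathway lists follow it, with additions stated, while marker lists are given as counts and summed levels, with genes named only from the T cell, endothelial and mesothelial lists and for the sort (Adgre1). Likewise named are, for each called member, the 2 genes most like it. Alternatives were other scalings, DESeq2 1.42.0, limma-voom, no filter, length-scaled TPM counts, FPKM, a replicate block and leaving out libraries.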

Additional observations from a re-analysis of the deposited data

Results flagged for a closer look

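Across 44 groups of 4 libraries examined for members, pairs and transcript shares, 3 held a library far from the other 3, where chance gives about 1 in 20. Vsir was at 406.1 CPM in CCl4 3 and between 305.0 and 317.9 CPM in the other CCl4 libraries. Cd274 minus Pdcd1lg2 was 6.01 on the log2 scale in CCl4 1 and 5.65 to 5.66 in the other CCl4 libraries. Cd86-201 held 64.6% of the gene's TPM in vehicle 2 and 74.5 to 76.6% in the other vehicle libraries.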

How the results depend on the processing

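Cd200 (log2 fold change 1.89 to 4.79), Havcr2 (1.32 to 2.13) and Cd200r1 (0.76 to 0.98) passed in all 19 alternatives, Vsir in 9 of 19 (0.55 to 0.85), Sirpa in 5 of 19, Cd86 in 4 of 19, Cd274, Cd47 and Cd80 in 0 of 19, and Pdcd1lg2 in 0 of the 17 that tested it. No member was lower in the test as reported, against 1 (Cd86) under library-size and upper-quartile scaling and both FPKM settings. Over all genes, 1431 were lower with library size only, 578 without CCl4 1, and 635 and 619 were higher with FPKM + 0.1 and FPKM + 1, against 953 lower and 1358 higher as reported. Higher genes were 58.8% of calls as reported, 43.1% under library-size scaling and 47.5% under upper-quartile scaling, and the median log2 fold change of all genes was -0.03, -0.16 and -0.12. Without single libraries, 1004 to 1503 genes were higher and 578 to 1163 lower. Of the pathway lists, 17 genes were higher with DESeq2 against 11 as reported. Of the 5 pairs, 3 passed with FPKM + 1 and 0 as reported, and with fewer libraries or paired signs the exact test cannot pass (smallest p 0.0571, 0.1 and 0.125), so only values were compared.

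Signs turned for values near 0 that passed in no setting. Cd274 was -0.09 with library size only, -0.04 with upper-quartile scaling, -0.01 with FPKM + 1, -0.06 without vehicle 2 and CCl4 4, and -0.17 to 0.32 without single libraries. Cd47 was 0.03 with length-scaled TPM counts, 0.12 with FPKM + 0.1 and FPKM + 1 and 0.01 without vehicle 2 and CCl4 4. Cd80 was 0.40 with FPKM + 0.1, 0.17 with FPKM + 1 and -0.24 to 0.01 without single libraries. Lgals9 was -0.14 with library size only, -0.10 with upper-quartile scaling, -0.03 with limma-voom and the replicate block, -0.13 with both FPKM settings and -0.10 to 0.12 without single libraries. Tyrobp was -0.04 with library size only and -0.18 with both FPKM settings, and Ifngr1 -0.14 to 0.04 without single libraries. Cd274 minus Pdcd1lg2 was 0.01 with FPKM + 1. The cause was not tested.

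Same-numbered libraries did not deviate together (correlations of 0.0152, -0.241, 0.0387 and -0.169 for replicates 1 to 4), and no pairing was used. These correlations cannot show whether same numbers share a day or litter, which the labels do not state. With the replicate as a block 1281 genes were higher and 829 lower, 4 members were higher, and Irf1 (adjusted p = 0.0504) and Cmtm4 (0.0908) lost their edgeR calls. At low counts (Pdcd1lg2, Cd200 in vehicle) depth limits what can be detected.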
